A study of Homo sapiens with 4 samples.

Results

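Laminin chains, the 2 plakins of the hemidesmosome and the tetraspanin CD151 were followed in MDA-MB-231 cells, a human triple-negative breast cancer line with mesenchymal features, after siRNA against hTrmt13 or a control siRNA. The members were 9 gene symbols given as a list of partners of integrin alpha6 beta4, and all 9 of them were found among the 28930 symbols of the count table. They are the laminin alpha chain genes LAMA3, LAMA4 and LAMA5, the beta chain genes LAMB1 and LAMB3, the gamma chain gene LAMC1, the plakin genes PLEC and DST, and CD151. The knockdown group had 2 RNA-seq libraries, and the control siRNA group also had 2. hTrmt13, encoded by TRMT13, is a methyltransferase that modifies the ribose of tRNA, and the series' design text gives the search for genes under its transcriptional control as the purpose. Both groups are the same line treated with siRNA, and for the siRNA sequence, its dose and the time of harvest the labels give nothing. Nothing in the labels says that replicates were separate cultures, so p-values measure the spread between these libraries, which may be technical.

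Laminins are secreted heterotrimers of 1 alpha, 1 beta and 1 gamma chain that build the basement membrane. Laminin-332, which holds the chains from LAMA3 and LAMB3, is the ligand to which epithelial cells anchor through integrin alpha6 beta4. Inside the cell, the tail of the integrin binds plectin (PLEC) and the epithelial form of dystonin (DST, also called BP230), which tie the hemidesmosome to keratin filaments, and CD151 binds laminin-binding integrins in the membrane. Genes of other partners are not members and are given below where they complete the picture.

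The libraries held between 9777267 and 13098985 counts, so that 3 counts, the limit that a count of 0 allows, corresponded to between 0.225 and 0.313 CPM (counts scaled to library size with TMM factors). Such limits cover counting error only. TRMT13 had 37 and 64 counts in the knockdown libraries, against 143 and 244 in the control libraries, and fell 4.05-fold (edgeR adjusted p = 0.0399). Of the genes chosen as present in this line, VIM, CD44, AXL and CAV1 were all above 1 CPM in every library. Of those the line should lack, ESR1 and PGR had no count and CDH1 had 1 count in each group, whereas ERBB3 stood at 11.7 and 11.0 CPM in knockdown and 22.1 and 21.9 CPM in control. Blood markers summed to between 0.761 and 0.899 CPM in knockdown and between 0.209 and 0.541 CPM in control. Endothelial markers summed to between 1.12 and 2.76 CPM in knockdown and between 4.02 and 6.47 CPM in control, and their part in the results was not tested. Fibroblast markers summed to between 19.5 and 37.8 CPM in knockdown and between 32.6 and 45.8 CPM in control, nearly all of it from COL1A1, with DCN at 0 counts.

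None of the members passed the threshold of an adjusted p under 0.05 (edgeR quasi-likelihood test, Benjamini-Hochberg adjustment over all 13022 genes tested). Of the 9 members, 8 passed the filter on low counts and LAMA3 did not. Among all genes tested, 2.99% were called, so that a count of 0 among 8 genes is near the background. The log2 fold changes of the 8 members tested were positive in 4 and negative in 4, with a median of −0.055, beside a median of 0.0053 over all genes tested. An unadjusted p under 0.05 was found for 1 of the 8, LAMB3, where 24% of all genes had one. The 2 groups did not overlap in CPM for LAMB3 and LAMC1 among the 8, where 54.3% of all genes tested were so separated. LAMB3 was the lower 1, as were 26.8% of all genes, and LAMC1 the higher 1, as were 27.5%. In a bulk library, fewer cells that make a transcript and less transcript per cell cannot be told apart.

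**Figure D1:**
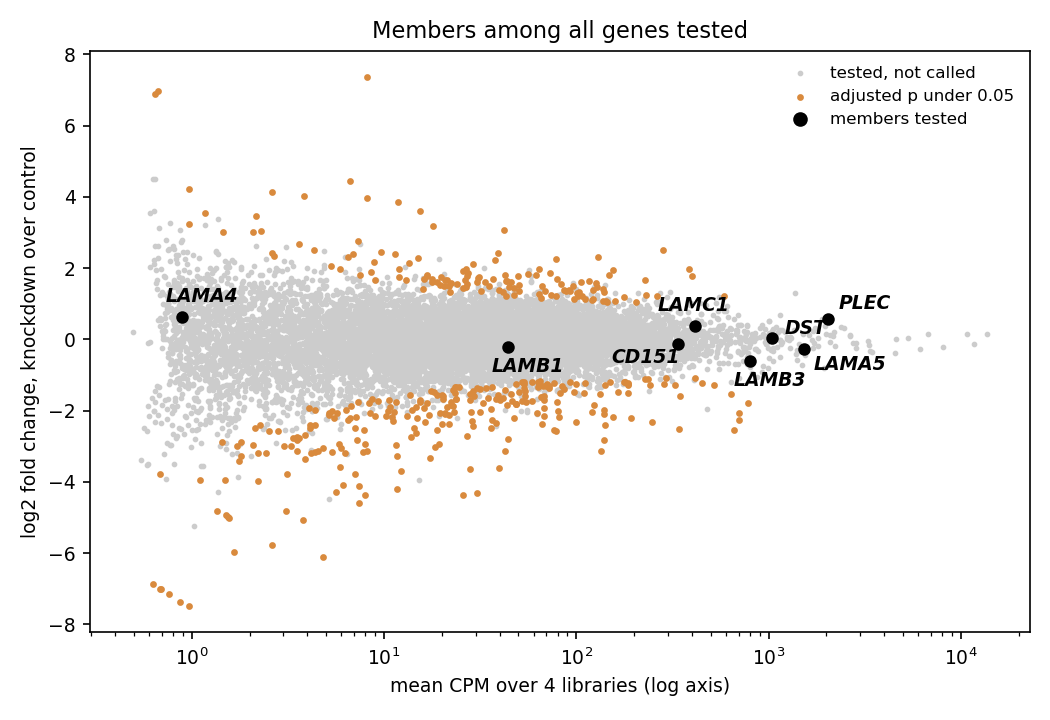
Each point is 1 of the 13022 genes tested, with its mean CPM over the 4 libraries on a log axis and its log2 fold change of knockdown over control; genes with an adjusted p under 0.05 are orange and the 8 members tested are black. The members sit between −0.62 (LAMB3) and 0.63 (LAMA4), and none is among the called genes.

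To compare levels between genes, CPM was divided by the length of all annotated exons of a gene in kilobases. On this scale of levels the order of the members was CD151 (mean over 4 libraries 203.0 CPM per kb), LAMB3 (179.1), LAMA5 (133.1), PLEC (123.4), LAMC1 (52.5), DST (33.7), LAMB1 (7.11), LAMA4 (0.114) and LAMA3 (0.054). Neighbours overlapped in their ranges over the 4 libraries from CD151 down to PLEC, and again between LAMA4 and LAMA3. PLEC, LAMC1, DST and LAMB1 were each apart from the next in line. CD151, LAMB3, LAMA5 and PLEC each exceeded at least 97.1% of the tested genes with a known length, LAMB1 exceeded 45.3% and LAMA4 exceeded 0.345%. DST and LAMA3 have several transcript forms, and the exons of all forms are counted in their length, which lowers their level per kb.

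**Figure D2:**
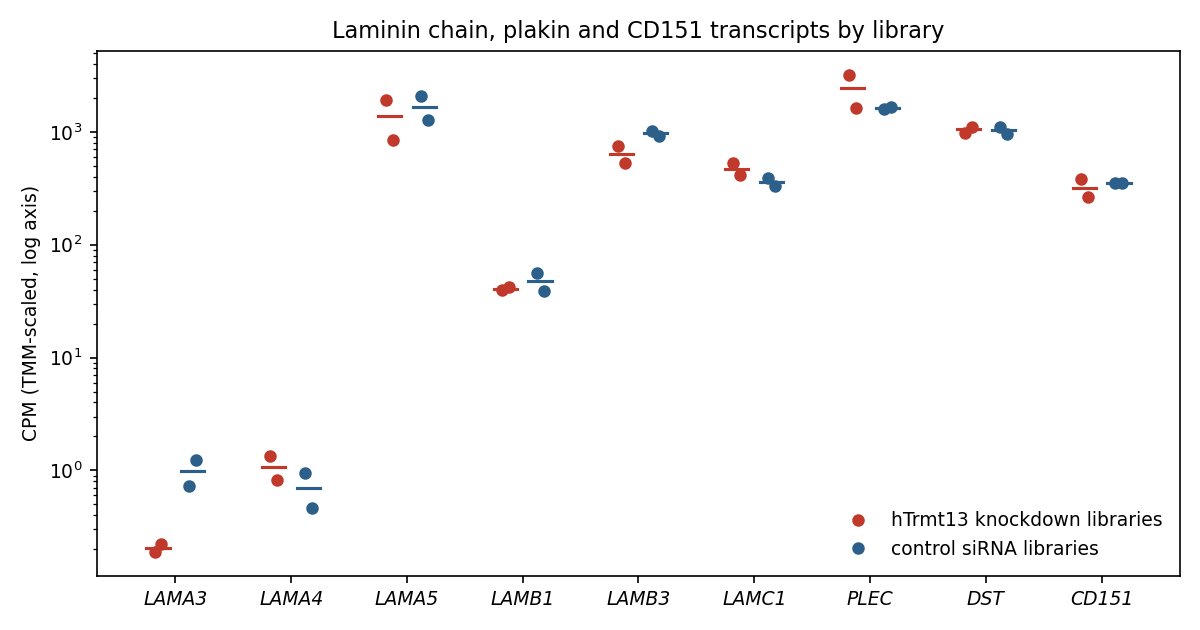
CPM of each member on a log axis, with a point for each of 2 knockdown (red, left) and 2 control (blue, right) libraries and a bar at the mean. LAMA3 and LAMA4 lie near or under 1 CPM and the other members between 38.8 and 3209 CPM. The groups are apart for LAMA3, LAMB3 and LAMC1, beside 54.3% of all genes tested.

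LAMA3 encodes the alpha3 chain, which no other chain replaces in laminin-332. It had 2 and 3 counts in the knockdown libraries, against 7 and 16 counts in the control libraries, or 0.190 and 0.225 CPM against 0.731 and 1.24 CPM. Both knockdown libraries were thus under both control libraries, at counts too low for the test. Among all genes tested, 26.8% were separated in this direction. The pooled counts of 5 in knockdown and 23 in control gave a depth-scaled ratio of 0.205 (95% exact binomial interval 0.0609 to 0.551, counting error only), and in a fit with no filter on low counts the log2 fold change was −2.20 with an unadjusted p of 0.0149 and an adjusted p of 0.105 (edgeR). The level per kb of LAMA3 was 0.010% and 0.017% of that of LAMB3 in the knockdown libraries and 0.029% and 0.054% in the control libraries. The length used holds the exons of all LAMA3 forms, which lowers these percentages. Whether the cells make laminin-332 protein was not tested.

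LAMA5 encodes the alpha5 chain, found in laminins of many epithelia and vessels, and was the abundant alpha chain. It stood at 1897 and 846.6 CPM in the knockdown libraries and at 2064 and 1277 CPM in the control libraries. The groups overlapped, and the libraries of 1 group differed by up to 2.24-fold (knockdown) and 1.62-fold (control). The log2 fold change was −0.28 (SE 0.41, 95% interval −1.26 to 0.69, edgeR adjusted p = 0.717), and it was 0.18 without knockdown replicate 2, 0.10 without control replicate 1 and −0.98 without knockdown replicate 1. Such fits compare unequal replicate numbers, so any difference between the numbers enters them. Within each replicate number LAMA5 was lower in knockdown, and a fit with the replicate number as a block gave −0.36, which did not pass (edgeR adjusted p = 0.106). LAMA4, whose alpha4 chain is known from vessels, muscle and fat, had 14 and 11 counts in knockdown and 9 and 6 counts in control. Its log2 fold change of 0.63 had a 95% interval from −0.80 to 2.07 (edgeR adjusted p = 0.567), so neither a fall of 1.74-fold nor a rise of 4.19-fold lies outside it, and the value was 0.18 without control replicate 2 and 1.18 without control replicate 1.

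The sequence before the start of transcription is shown for the scarce alpha chain gene LAMA3, for LAMB3, its partner in laminin-332, and for the abundant alpha chain gene LAMA5, from RefSeq on GRCh38.p14, each as the 250 bases before an annotated start, on the strand of the gene. The capitals mark TGANTCA, the motif of AP-1 factors, which reads the same on both strands. Of the members, 7 of 9 had such windows in the table used. LAMA3 is shown at chr18:23872770-23873019 (plus strand), LAMB3 at chr1:209651375-209651624 (minus strand), the 1 of its 3 windows that holds the motif, and LAMA5 at chr20:62367313-62367562 (minus strand). The LAMA3 window was the only 1 found for that gene, whose counts pool several transcript forms.
LAMA3: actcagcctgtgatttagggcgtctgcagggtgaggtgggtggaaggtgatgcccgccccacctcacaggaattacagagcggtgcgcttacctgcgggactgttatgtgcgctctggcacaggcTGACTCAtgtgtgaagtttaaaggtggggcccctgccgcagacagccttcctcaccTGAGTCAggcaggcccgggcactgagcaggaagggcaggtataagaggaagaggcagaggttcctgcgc
LAMB3: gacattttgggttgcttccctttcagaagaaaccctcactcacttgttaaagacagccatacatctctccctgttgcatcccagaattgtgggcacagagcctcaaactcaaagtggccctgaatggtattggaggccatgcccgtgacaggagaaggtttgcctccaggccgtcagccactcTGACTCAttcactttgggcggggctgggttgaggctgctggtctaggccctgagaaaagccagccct
LAMA5: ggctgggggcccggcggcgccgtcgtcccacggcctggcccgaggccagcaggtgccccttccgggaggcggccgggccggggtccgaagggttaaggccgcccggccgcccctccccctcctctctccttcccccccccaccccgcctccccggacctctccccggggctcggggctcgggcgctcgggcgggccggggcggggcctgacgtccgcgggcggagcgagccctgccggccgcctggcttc

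The LAMA3 window held 2 matches, beginning 125 and 69 bases before the start, and the LAMB3 window held 1, beginning 67 bases before it. The LAMA5 window held none, as did those of LAMA4, LAMB1, LAMC1 and DST and the other LAMB3 windows. The motif was found in 6.57% of all 35116 windows of this length. The GC box GGGCGG, read on both strands with CCGCCC, had 5 matches in the LAMA5 window and 1 each in the LAMA3 and LAMB3 windows shown, and at least 1 in 42.6% of all windows. The GC content was 60.4% for LAMA3, 54.0% for the LAMB3 window shown and 82.8% for LAMA5, beside a median of 58.0% over all windows. These are matches of letters, with no measurement of binding, and the windows come from a build other than the hg19 named for the counts.

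LAMB3 encodes the beta3 chain of laminin-332 and had the smallest p of the members. It stood at 744.4 and 525.7 CPM in the knockdown libraries, against 1019 and 926.5 CPM in the control libraries. Both knockdown libraries were under both control libraries. The means were 635.0 ± 154.6 CPM in knockdown and 972.7 ± 65.3 CPM in control (SD, n = 2 each), a log2 fold change of −0.62 (SE 0.24, 95% interval −1.18 to −0.05), or 1.53-fold lower, with an unadjusted p of 0.0369 and an adjusted p of 0.180 (edgeR), so that the difference did not pass. Without knockdown replicate 2 the log2 fold change was −0.39, and without knockdown replicate 1 it was −0.88. Whether LAMB3 passed depended on whether the replicate number entered the fit as a block, as given in the closing section.

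LAMB1 encodes the beta1 chain, a widely made chain of the laminins outside the hemidesmosome. It stood at 39.7 and 42.0 CPM in knockdown and at 56.5 and 38.8 CPM in control. The knockdown values lay between the control values, and the log2 fold change was −0.22 (SE 0.27, 95% interval −0.86 to 0.42, edgeR adjusted p = 0.667), turning to 0.082 without control replicate 1. LAMB3 reads were 18.7 and 12.5 times those of LAMB1 in the knockdown libraries and 18.0 and 23.9 times in the control libraries. This ratio, which does not depend on how libraries are scaled, overlapped between the groups (difference of mean log2 ratios −0.44, exact two-sided permutation test over samples p = 0.667, where 0.333 is the smallest p that 2 against 2 allows).

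LAMC1 encodes the gamma1 chain, shared by most laminins other than laminin-332. It stood at 525.8 and 409.9 CPM in the knockdown libraries, against 393.3 and 328.7 CPM in the control libraries. Both knockdown values were above both control values, and the means were 467.9 ± 82.0 CPM in knockdown and 361.0 ± 45.7 CPM in control (SD, n = 2 each). The log2 fold change of 0.37 (SE 0.23, 95% interval −0.17 to 0.92) did not pass (edgeR adjusted p = 0.366).

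Seen as the make-up of alpha and beta chains, with levels per kb, LAMA5 took 99.5% and 99.1% of the alpha chain transcripts in the knockdown libraries and 99.6% and 99.4% in the control libraries. Among beta chains, LAMB3 took 42.4% and 46.8% in the knockdown libraries, against 55.6% and 64.8% in the control libraries. LAMB2, the beta2 chain known from the basement membranes of kidney and muscle, took 55.9% and 50.5% in knockdown and 42.2% and 33.3% in control. The larger of the 2 beta chains was thus LAMB2 in both knockdown libraries and LAMB3 in both control libraries. LAMB2 itself had a log2 fold change of 0.31 (SE 0.34, 95% interval −0.51 to 1.13, edgeR adjusted p = 0.628), with overlapping groups, and one of −0.14 without knockdown replicate 1. Within each replicate number LAMB2 was higher in knockdown, at 1260 against 993.2 CPM (replicate 1) and 727.9 against 610.2 CPM (replicate 2). The shares of LAMB3 and of LAMB2 did not overlap between the groups, and they are given as a description, with no test of the difference. Together they make up nearly all of the beta chain total, so these are not separate observations.

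**Figure D3:**
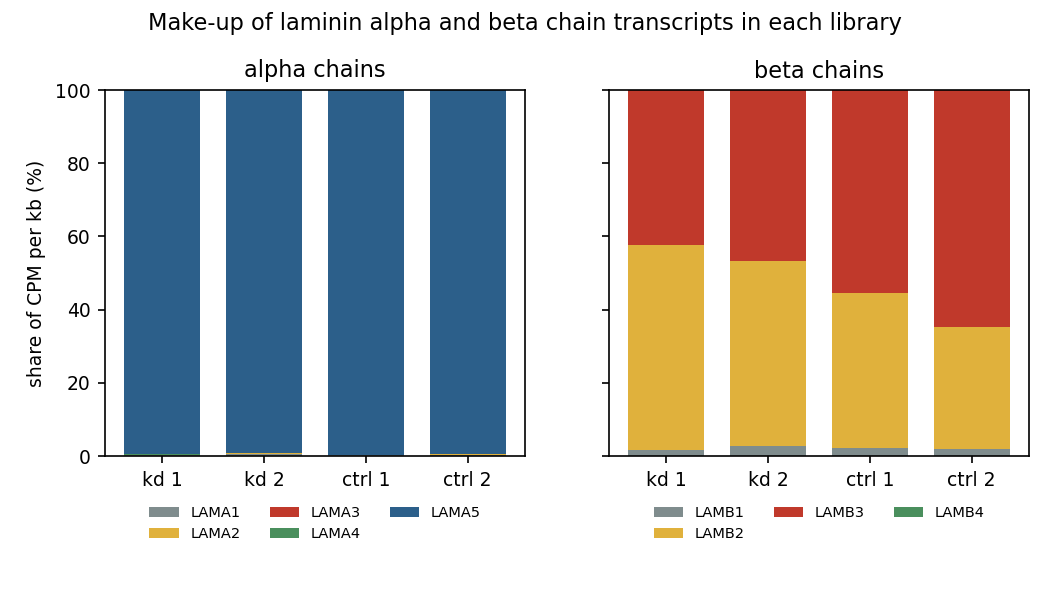
Stacked bars give the share of each chain gene in the CPM per kb of its chain type (percent) in knockdown libraries 1 and 2 and control libraries 1 and 2. LAMA5 fills over 99% of the alpha bars; LAMB3 takes 42.4% and 46.8% of the beta bars in knockdown and 55.6% and 64.8% in control.

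PLEC encodes plectin, a cytolinker that joins integrin beta4 to intermediate filaments and that also serves actin and microtubules in cells without hemidesmosomes. It stood at 3209 and 1639 CPM in the knockdown libraries, against 1600 and 1673 CPM in the control libraries. Only knockdown replicate 1 lay above the control range, and the other knockdown library lay inside it. The log2 fold change of 0.57 (SE 0.32, 95% interval −0.20 to 1.33, edgeR adjusted p = 0.335) was 0.0089 without knockdown replicate 1 and 0.97 without knockdown replicate 2, so that 1 library decides its size.

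DST encodes dystonin, which has an epithelial form in the hemidesmosome and other forms in nerve and muscle, and the counts per gene do not tell these forms apart. It stood at 983.3 and 1113 CPM in knockdown and at 1095 and 963.3 CPM in control. The groups overlapped, and no other member had a log2 fold change closer to 0 (0.026, SE 0.20, 95% interval −0.45 to 0.51, edgeR adjusted p = 0.956). Falls of more than 1.37-fold and rises of more than 1.42-fold lie outside that interval. The sign of this small value turned in the fits without knockdown replicate 2 (−0.065) and without control replicate 2 (−0.063).

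CD151 encodes a tetraspanin that binds the laminin receptors alpha3 beta1 and alpha6 beta4. It stood at 378.1 and 263.6 CPM in the knockdown libraries and at 350.3 and 354.5 CPM in the control libraries. The control values lay between the knockdown values, and the log2 fold change was −0.14 (SE 0.24, 95% interval −0.71 to 0.43, edgeR adjusted p = 0.772), turning to 0.10 without knockdown replicate 2. The interval leaves out falls of more than 1.63-fold and rises of more than 1.35-fold.

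The integrin itself showed other values. ITGB4, the beta4 subunit, stood at 29.6 and 25.4 CPM in the knockdown libraries, against 346.0 and 137.7 CPM in the control libraries, and fell 8.80-fold (log2 fold change −3.14, SE 0.45, 95% interval −4.20 to −2.07, edgeR adjusted p = 0.0315). Without control replicate 1 this log2 fold change was −2.32. ITGA6, the alpha6 subunit, stood at 111.0 and 133.8 CPM in knockdown and 229.2 and 242.8 CPM in control, with no overlap, and did not pass (log2 fold change −0.95, SE 0.21, edgeR adjusted p = 0.0657). COL17A1, the transmembrane collagen of hemidesmosomes, stood at 7.13 and 5.99 CPM in knockdown and 2.19 and 4.25 CPM in control, with a log2 fold change of 1.01 that did not pass (SE 0.42, edgeR adjusted p = 0.208). The keratin partners of the basal cell hemidesmosome were near absent, with KRT5 at 0 counts in all 4 libraries and KRT14 at 1 count in a single control library. The difference between the change of ITGB4 and that of each member was not tested.

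**Figure D4:**
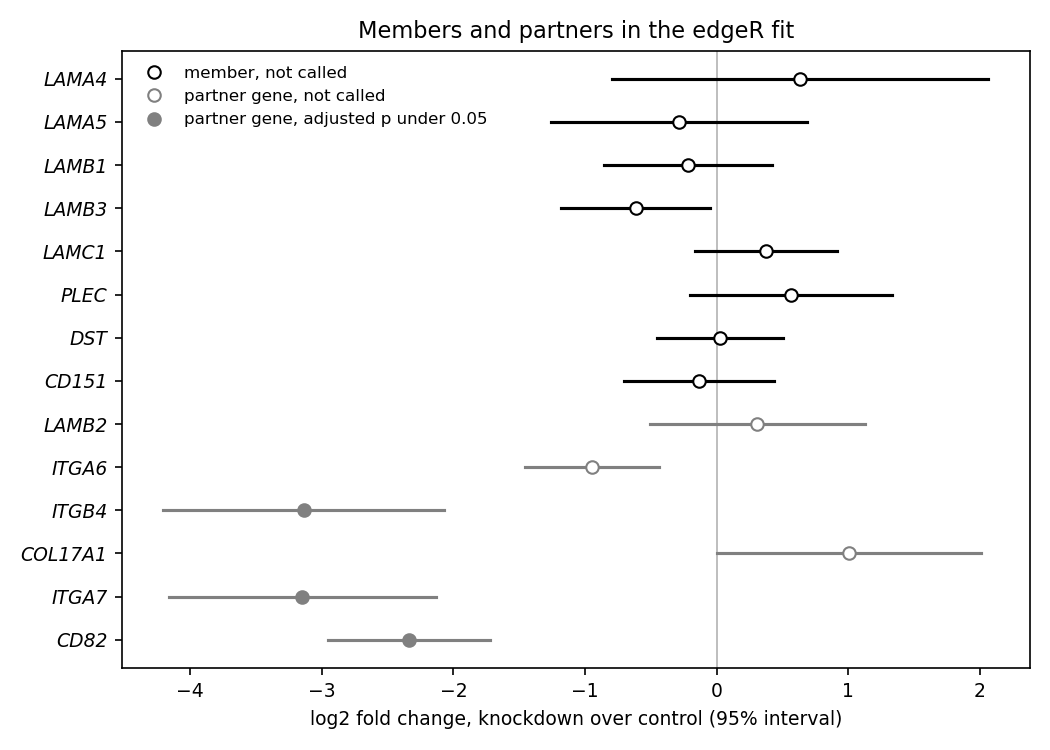
Log2 fold changes of knockdown over control with 95% intervals from the edgeR fit, for the 8 members tested (black) and 6 partner genes (grey); filled points have an adjusted p under 0.05. ITGB4, ITGA7 and CD82 lie at −3.14, −3.15 and −2.34, and the members between −0.62 and 0.63.

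Other genes of the system were read from lists, and the counts called stand beside 1.03% of all genes tested called higher and 1.96% called lower. Of 5 other laminin chains described here, 3 were tested and 0 were called in either direction, with a median log2 fold change of 0.22. The 2 not tested were LAMB4 and LAMC3, with at most 4 counts in a library. Of 8 other hemidesmosome and plakin genes, 6 were tested and 1 was called, ITGB4, which was lower, with a median of −0.44. MACF1, a plakin of the cytoskeleton, stood at 856.3 and 877.2 CPM in knockdown and 818.1 and 840.3 CPM in control (log2 fold change 0.064, edgeR adjusted p = 0.874).

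All 10 other laminin receptors were tested, and 1 was lower, ITGA7, the alpha7 subunit of a laminin-binding integrin of muscle, with a median of −0.10 over the list. ITGA7 had 6 and 11 counts in knockdown, against 63 and 79 counts in control, and fell 8.87-fold (edgeR adjusted p = 0.0295). Of 7 other tetraspanins, 5 were tested and 1 was lower, with a median of −0.31. This was CD82, known as a suppressor of metastasis, at 14.3 and 11.2 CPM in knockdown, against 64.8 and 63.7 CPM in control (5.06-fold lower, edgeR adjusted p = 0.0262).

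Of 15 other basement membrane genes, 12 were tested and 1 was lower, with a median of −0.011. This was SPARC, a collagen-binding matrix protein, at 34.7 and 30.1 CPM in knockdown, against 75.2 and 73.9 CPM in control (2.30-fold lower, edgeR adjusted p = 0.0476). This call is close to the threshold and ended without knockdown replicate 2 (adjusted p = 0.0691), without control replicate 1 (0.0832) or without control replicate 2 (0.0621), and also with library size alone as the scaling (0.0514) or a filter at a mean of 5 CPM (0.0519). Nidogen, which links laminin to type IV collagen, was near absent, with NID1 at 0 counts in every library and NID2 at 1 count in 1 knockdown library. Of 6 proteases that cut laminin-332, 2 were tested and 0 were called. MMP14, a membrane metalloprotease, stood at 115.8 and 90.7 CPM in knockdown and 295.6 and 197.8 CPM in control (log2 fold change −1.26, SE 0.27, edgeR adjusted p = 0.0607), and BMP1 had overlapping groups.

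Patterns over the 4 libraries were compared by the root mean square difference of centred log2 CPM. Most like LAMB3 were ANKRD37 (0.013), SORBS3 (0.038) and ATG4D (0.040). The candidates were 10743 tested genes whose mean reached 5 CPM and whose symbol is no clone name. Those most like LAMA3, whose pattern rests on 28 counts in all, were TMEM154 (0.068), NRGN (0.072) and MFSD2A (0.092). A prior count of 2, added before taking logs, makes differences at such low counts smaller. The log2 fold changes of these genes were −1.56, −1.55 and −1.50, beside a log2 ratio of −2.29 for the depth-scaled counts of LAMA3. With 4 libraries and so many candidates, such small distances describe these libraries and nothing further.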

How the data were processed

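RNA-seq of 4 MDA-MB-231 libraries was analysed, 2 with hTrmt13 siRNA and 2 with control siRNA, grouped by their labels. The authors deposited unnormalized counts of reads, 1 row for each gene symbol. Tools listed in the submitters' processing notes, with no role stated, are STAR 2.5.2b, HTSeq 0.6.1, cutadapt and limma, and the builds GRCh37 and hg19; neither annotation nor strand setting is stated. Without strand, reads of overlapping antisense genes cannot be kept apart: antisense exons cover 0.817% of the exon length of LAMA4, 0.656% of LAMA5 and 2.47% of CD151. For ITGA6, separate antisense genes cover 2.98%, 2.14% and 0.89% of the exon length. Each library was counted as 1 sample. Chi-square divided by its degrees of freedom was 44.3 between the knockdown and 40.4 between the control libraries (genes averaging 20 counts or more). The libraries of a group thus differed by more than counting error, which does not show that they were separate cultures.

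Counts were tested with edgeR 4.0.16 (R 4.3.3, TMM, filterByExpr with minimum count 10 and minimum total 15, quasi-likelihood, no covariate, threshold 0.05). CPM uses TMM-scaled library sizes, and an SE is the absolute log2 fold change divided by the root of F. Exon lengths are from GENCODE 29 (GRCh38) and were found for 20660 of 28930 symbols. ERBIN was read as ERBB2IP, its symbol in the table. Like patterns were sought with a prior count of 2. Alternatives were other scalings, no filter, a mean of 5 CPM, DESeq2 1.42.0, limma 3.58.1 (voom), a replicate block and leaving out each library. The tests were tried on simulated counts with known changes. Named genes were the 9 members, TRMT13, ITGA6, ITGB4, COL17A1, and from each list the called genes or else the 1 with the smallest p; MACF1, BMP1, KRT5, KRT14, LAMB4, LAMC3, NID1 and NID2 were added after their values were seen. Another gene of the lists is not reported here. The members and lists were chosen with earlier results of these data known.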

Additional observations from a re-analysis of the deposited data

How the results depend on the processing

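Leaving out 1 library, rescaling, refiltering, DESeq2 and limma-voom each kept the number of members called at 0, higher and lower, whereas the fit with the replicate number as a block called 1 member lower, LAMB3 (log2 fold change −0.64, adjusted p = 0.0035). The block called 2517 genes higher and 2710 lower, against 134 and 255 without it. The labels give these numbers no shared culture or day. Library codes in the column titles are consecutive within a replicate number and far apart between the numbers. What the codes mark is not stated. The deviations of equal numbers correlated across genes (r = 0.639), with 2 pairs only. COL17A1 (1.01), ITGA6 (−0.95) and MMP14 (−1.24) also passed with the block; ITGA6 (−0.94) and MMP14 (−1.25) passed with no filter, ITGA6 (−0.95) and MMP14 (−1.26) with DESeq2, and MMP14 also without knockdown replicate 1 (−1.44) or control replicate 2 (−1.52). Over all genes, no filter called 826 higher and 1123 lower and DESeq2 455 and 674, and leaving out 1 library gave 198 to 363 higher and 407 to 572 lower; the cause was not tested. Of 95 values of single members under alternatives, 88 kept sign and side, 6 changed sign without 1 library, over which LAMA5 ran from −0.98 to 0.18 (0.10 without control replicate 1), LAMB1 from −0.47 to 0.082, DST from −0.065 to 0.13 (−0.063 without control replicate 2) and CD151 from −0.41 to 0.10, and 1 passed. LAMB2 ran from −0.14 to 0.71 without 1 library. Leaving out 1 library makes the replicate numbers unequal between the groups, so any difference between the numbers enters such fits. The difference in log2 ratio of LAMB3 to LAMB1 ran from −0.73 to −0.15 without 1 library. With counts not divided by length, the mean share of LAMB3 was 38.5% in knockdown (44.6% per kb) and 54.0% in control (60.2% per kb). LAMA3 and LAMA4 are limited by depth.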
